A study of Homo sapiens with 12 samples.

Results

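The genes described here encode C2H2 zinc finger proteins of chromosome 19, though not all of those on the chromosome. They were chosen by name, place and a lower limit on level: protein-coding genes on chromosome 19 in GENCODE release 44 (GRCh38) whose symbol is ZNF followed by a number, with or without 1 final letter. The annotation holds 246 such genes, of which 244 were in the count table. In the fit across all genes 226 were tested, and the 192 with a mean of at least 1 CPM (counts scaled to library size, in parts per M) over the 12 libraries are the members reported, of 63541 gene IDs in the table. The others were 34 genes that were tested but lay under 1 CPM, 18 that were too low to be tested and 2 that are not analysed here. Just above the limit were ZNF544, ZNF665 and ZNF492 (1.01, 1.25 and 1.29 CPM), and just below it ZNF433, ZNF404 and ZNF442 (0.983, 0.964 and 0.894 CPM).

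The cells were HEK293T, a line from human embryonic kidney that carries adenovirus genes and the SV40 large T antigen, collected 48 h after lipid transfection with siRNA at 12.5 nM. There were 4 groups of 3 biological replicates: a scramble siRNA as control, si-snaR-A#1, si-snaR-A#2, and, as the last, si-snaR-A#3. The final 3 all target snaR-A, a short RNA polymerase III transcript whose genes also lie on chromosome 19. Libraries were made from poly(A)+ RNA after removal of rRNA, and their totals were between 120.4 and 180.1 M estimated counts. snaR-A itself was not measured here, so the depth of the knockdown was not checked. Genes expected in HEK293 cells were present in every library, from 244 to 462 CPM for NEFM and from 4.57 to 7.36 CPM for the kidney gene PAX2, while PTPRC, CD3E, PECAM1, COL1A2, ALB and MLANA, which mark leukocytes, endothelium, fibroblasts, hepatocytes and melanocytes, reached at most 0.134 CPM.

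A C2H2 finger is a short fold in which 2 cysteines and 2 histidines hold a zinc ion, and a row of fingers reads a stretch of DNA. Most of the chromosome 19 proteins carry a KRAB domain in front of the fingers. KRAB binds TRIM28, which brings the histone methyltransferase SETDB1 and heterochromatin proteins to the bound site, and many of these sites lie in transposable elements. The genes arose by repeated local duplication, so they stand in clusters and resemble one another.

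Sequences of fingers and of 5′ flanks are shown as a description: fingers because like sequence limits how reads can be told apart, and promoters because many members rose together with si-snaR-A#2. The translated canonical coding sequence of the members held between 1 and 31 finger patterns (median 12), and 160 of the 192 held a KRAB A box pattern before the first finger. The first sequence is the coding stretch of a finger of ZNF146, the most abundant member. The next 2 are from ZNF587 and its neighbour ZNF417, chosen for their likeness after their values were seen. Capitals mark the codons of the paired cysteines and histidines, and all 3 stretches are read 5′ to 3′ on GRCh38.
ZNF146 second finger, chr19:36236576-36236638, plus strand: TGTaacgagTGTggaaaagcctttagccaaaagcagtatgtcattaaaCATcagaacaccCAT
ZNF587 second finger, chr19:57859136-57859198, plus strand: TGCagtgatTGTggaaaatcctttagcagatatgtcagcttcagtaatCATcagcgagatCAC
ZNF417 second finger, chr19:57909492-57909554, minus strand: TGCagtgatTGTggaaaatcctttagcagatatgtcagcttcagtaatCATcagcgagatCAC

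The stretches of ZNF587 and ZNF417 differed at 0 of 63 bases, and their coding sequences of 1725 bases each differed at 16 (99.1% identity). Over whole transcripts, 29.3% of the 31-base words of ZNF587 were also in ZNF417, and 40.2% of those of ZNF417 were in ZNF587. Across the members, the share of 31-base words found in any other gene had a median of 10.8% and a highest value of 88.2%, in ZNF177, whose sequence lies within the readthrough gene ZNF559-ZNF177. Only 54 members shared under 5%. Reads from shared words cannot be placed with certainty, and exons of 120 members overlap those of another annotated gene, where reads can be divided between both. These shares are given again beside some of the genes named, and a gene printed without one is not thereby free of shared words.

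Promoter sequences, taken as the 250 bases before and 50 after the transcription start in the RefSeq table (GRCh38.p14), were found for 172 members. Only the first one listed for each member was used. Printed here are those of ZNF616, ZNF227 and ZNF134, the 3 members with the largest rises in the mean of the 3 siRNAs among those called with each. The ZNF227 window lies inside the gene span given below, downstream of the gene's GENCODE start. Capitals mark CCGGAAG, a core that ETS factors bind, and the GC box GGGCGG, on either strand.
ZNF616 promoter, chr19:52139889-52140188, minus strand: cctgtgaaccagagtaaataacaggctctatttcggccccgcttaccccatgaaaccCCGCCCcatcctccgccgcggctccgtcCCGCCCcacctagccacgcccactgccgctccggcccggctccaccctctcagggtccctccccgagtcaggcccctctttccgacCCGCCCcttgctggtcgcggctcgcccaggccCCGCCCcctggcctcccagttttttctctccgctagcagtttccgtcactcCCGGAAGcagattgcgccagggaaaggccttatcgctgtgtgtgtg
ZNF227 promoter, chr19:44212282-44212581, plus strand: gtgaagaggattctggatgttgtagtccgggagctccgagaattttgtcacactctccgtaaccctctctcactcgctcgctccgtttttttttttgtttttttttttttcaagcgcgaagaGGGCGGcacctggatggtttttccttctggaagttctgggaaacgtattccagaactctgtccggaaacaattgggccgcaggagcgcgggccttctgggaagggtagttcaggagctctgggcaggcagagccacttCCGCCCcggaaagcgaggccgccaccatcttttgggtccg
ZNF134 promoter, chr19:57613992-57614291, plus strand: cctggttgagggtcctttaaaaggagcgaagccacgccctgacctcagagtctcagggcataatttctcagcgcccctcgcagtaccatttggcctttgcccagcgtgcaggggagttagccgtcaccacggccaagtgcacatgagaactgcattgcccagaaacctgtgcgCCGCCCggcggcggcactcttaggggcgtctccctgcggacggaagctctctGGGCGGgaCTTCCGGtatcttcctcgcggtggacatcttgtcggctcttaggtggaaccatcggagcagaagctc

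CCGGAAG stood on either strand in 81 of the 172 member promoters (47.1%) and in 10.1% of the 34897 promoters under other symbols. Unlike the members, that set was not limited to protein-coding genes, by level or to the first promoter of a symbol. The shares thus do not compare like with like. GGGCGG was in 64.5% and 44.8%, CCAAT in 51.7% and 34.5%, and TATAAA in 2.33% and 11.6%. CACGTG was in 5.23% and 7.27%, and TGACGTCA in 3.49% and 1.83%. Among the 71 matched members that rose with si-snaR-A#2, 47.9% held CCGGAAG and 63.4% GGGCGG, close to the shares over all members. The motif matches are letters in a window and say nothing about which factor was bound.

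Members were expressed at low to moderate levels, with a median of 8.42 CPM against 33 CPM for the 12279 other protein-coding genes at 1 CPM or more. Only 5 members reached 50 CPM. Per kilobase of transcript, the scale on which genes can be compared with one another, ZNF146 was highest at 68.4 CPM per kb, followed by ZNF581 (24.2), ZNF121 (22) and ZNF580 (18.9), and ZNF285 was lowest at 0.275. The median was 2.13. Member transcripts were also lower in GC content, with a median of 42.4% against 48.1%.

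The members' levels added together came to 2477, 2379 and 2307 CPM in the scramble libraries, 2565, 2602 and 2629 after si-snaR-A#1, 2804, 2830 and 2883 after si-snaR-A#2, and 2628, 2571 and 2534 after transfection of si-snaR-A#3. Every siRNA library lay above every scramble library, and the si-snaR-A#2 libraries lay above all others. Group means were 2388 ± 85.6 CPM in scramble and, in the order of the siRNA numbers, 2599 ± 32, 2839 ± 40 and 2578 ± 47 (SD, n = 3), or 1.09, 1.19 and 1.08 times scramble. A large part of the difference with si-snaR-A#1 was 1 gene, since ZNF121 gave 125 of the 211 CPM. With ZNF121 left out of the sum, an alternative added after seeing the data, the si-snaR-A#1 libraries were at 2358, 2373 and 2347 CPM against 2346, 2270 and 2207 CPM in scramble, and the ratios became 1.04, 1.18 and 1.08. As a share of protein-coding CPM the difference of si-snaR-A#3 was within the spread, at 0.264% ± 0.00681 against 0.259% ± 0.0113, while si-snaR-A#1 and si-snaR-A#2 were at 0.292% ± 0.0126 and 0.293% ± 0.00497.

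**Figure D1:**
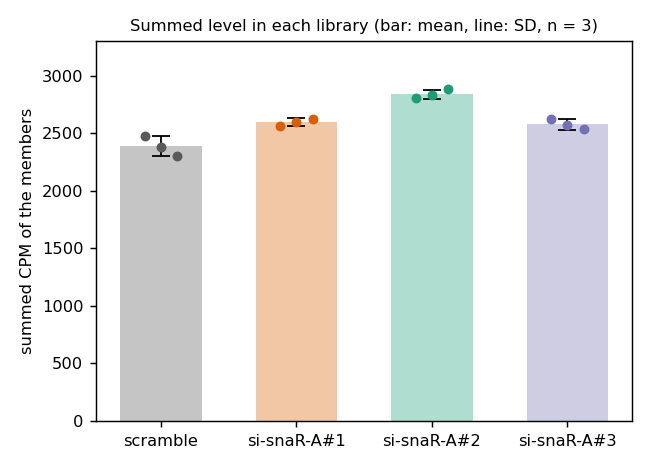
Summed TMM-normalised CPM of the 192 members (y axis) in each of the 12 libraries, by group (x axis). Points are libraries, bars group means and black lines the SD of 3 replicates. The si-snaR-A#2 libraries sit between 2804 and 2883 CPM, above all libraries of the other groups.

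Each siRNA was compared with scramble to ask which members changed in abundance after transfection. With si-snaR-A#2 the changes were mostly rises: 73 members (38.0%) were higher than in scramble and 9 (4.69%) lower at an edgeR adjusted p under 0.05, whereas 22.2% of the other protein-coding genes were higher and 16.1% lower. The background over all 21999 genes tested, in either direction, was 25.8%. The median log2 fold change was 0.20 over the members and 0.02 over the other genes, and 79.2% of members had a positive value. Rises were modest, with a median of 0.42 among those called, and 2 members, ZNF616 and ZNF227, rose over 2-fold. DESeq2 called 99 higher (51.6%) and 9 lower (4.69%), against 27.2% and 15.8% of the other protein-coding genes. In RNA of whole cultures, fewer cells with a transcript and less of it per cell cannot be told apart.

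With si-snaR-A#1 members went both ways. The test called 38 higher (19.8%) and 52 lower (27.1%), against 28.5% and 32.4% of the other protein-coding genes and 45.2% of all genes tested in either direction. The median log2 fold change, -0.02, was that of the other genes (-0.02). Which direction had more calls depended on GC content and transcript length. With a trend on both removed from each library, 61 members were higher (31.8%) and 33 lower (17.2%), and the median became 0.07. In that fit 32.8% of the other protein-coding genes were higher and 30.1% lower, so the members' share of rises was near that background. The direction with more calls thus turned with this setting. Changes over 2-fold were seen in ZNF587B and ZNF121, which rose, and ZNF568 and ZNF260, which fell.

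With si-snaR-A#3, 43 members (22.4%) were higher and 15 (7.81%) lower, against 27.3% and 15.5% of the other protein-coding genes and 29.4% of all genes in either direction. The median was 0.06 over members and 0.04 over the other genes. Under upper quartile scaling the split was 36 higher (18.8%) and 26 lower (13.5%), against 21.8% and 21.8% of the other protein-coding genes. With the GC content and length trend removed it was 41 (21.4%) and 24 (12.5%), against 28.7% and 18.6%. When the mean of all siRNAs was set against scramble, 62 members (32.3%) were higher and 21 (10.9%) lower, against 24.5% and 21.8% of the other protein-coding genes and 32.2% of all genes in either direction. Without scramble replicate 1, the count lower in the mean was 13.

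**Figure D2:**
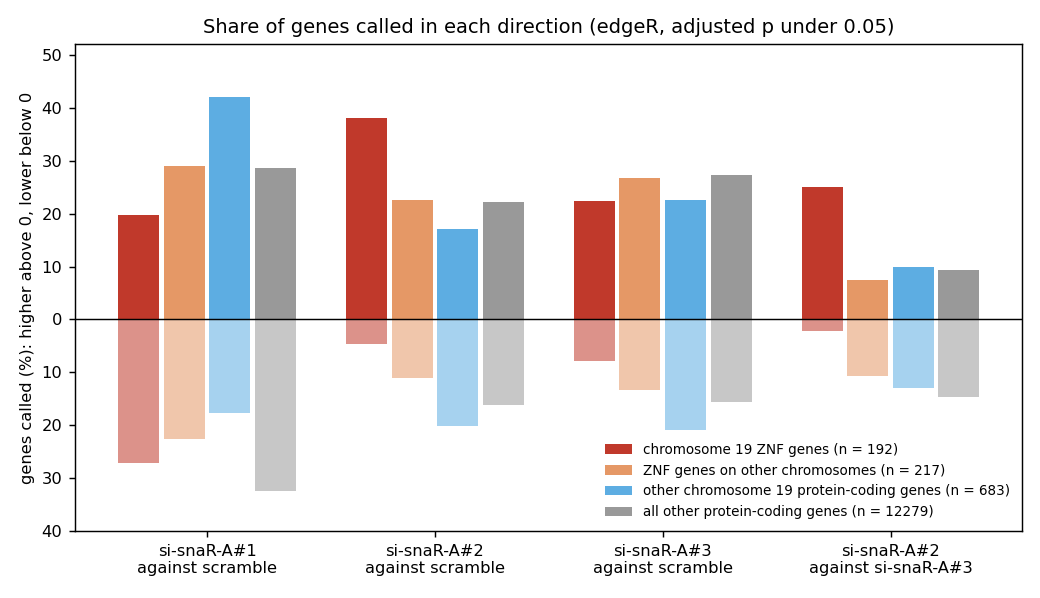
Percent of genes called higher (above 0) or lower (below 0) in each comparison on the x axis, for the 192 members and 3 sets of other genes at 1 CPM or more. The red bars of the members reach 38.0% higher and 4.69% lower with si-snaR-A#2, and 25% higher and 2.08% lower in si-snaR-A#2 against si-snaR-A#3.

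The same symbol form elsewhere in the genome and the same chromosome without these genes give 2 further points of reference. Of 217 ZNF genes on other chromosomes, 49 rose (22.6%) and 24 fell (11.1%) with si-snaR-A#2, with a median log2 fold change of 0.03. Of 683 other protein-coding genes on chromosome 19, 117 rose (17.1%) and 137 fell (20.1%) with si-snaR-A#2, with a median of -0.02. Members were set apart from these genes by symbol, so the set can hold zinc finger genes named otherwise. With si-snaR-A#1, 287 of those chromosome 19 genes were higher (42%) and 121 lower (17.7%), beside 38 (19.8%) and 52 (27.1%) of the members. The members' split turned with the GC content and length trend removed, a setting in which those genes were not counted. Differences between these sets were not tested, because genes are not replicates and neighbouring genes share sequence.

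Split by level, 64 of the 135 members at 5 CPM or more rose and 8 fell with si-snaR-A#2, and 9 of the 57 members under 5 CPM rose and 1 fell. Among the other protein-coding genes, 24.9% of those at 5 CPM or more rose and 14.7% fell, and 3.86% of those under 5 CPM rose and 25% fell. Among the 54 members with under 5% shared words, 18 rose (33.3%) and 5 fell (9.26%), and their median was 0.14. Of the 72 members with no exon overlap, a split chosen after seeing the data, 31 rose and 5 fell.

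Split by protein features, the 160 members with a KRAB A box pattern had 65 rises (40.6%) and 5 falls (3.12%) with si-snaR-A#2, and a median log2 fold change of 0.21. The 32 members without the pattern had 8 rises (25%) and 4 falls (12.5%), and a median of -0.02, beside 22.2% and 16.1% of the other protein-coding genes, so their share of rises was near that background. With si-snaR-A#1 the KRAB members had 30 rises (18.8%) and 42 falls (26.2%) and the others 8 (25%) and 10 (31.2%), all at or under the background of 28.5% and 32.4%. The rises with si-snaR-A#2 were 19 of 65 (29.2%) among members with up to 10 fingers, 30 of 69 (43.5%) with 11 to 14 and 24 of 58 (41.4%) with more. These splits are descriptions, and the difference between them was not tested.

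All 3 comparisons use the same 3 scramble libraries, so a gene that happened to be low there would look higher in each. Side by side, 19 members (9.90%) were called higher with each of the 3 siRNAs and 1 (0.521%) lower, against 8.68% and 4.11% of the other protein-coding genes. The share of rises was near that background. Of the 19, 18 had all 9 siRNA libraries above all 3 scramble libraries, as did 1000 of the 1066 other protein-coding genes called higher with each siRNA. The 6 largest rises among these 18 members and the 1 fall follow. Their separation from scramble was a condition of the choice and is no further support. The look-alike pair shown above was split by the threshold: ZNF417 was called higher with each siRNA, with log2 fold changes of 0.33, 0.49 and 0.37, and ZNF587 with the first 2 only, with 0.40, 0.52 and, for si-snaR-A#3, 0.18 (standard error 0.15, adjusted p 0.422). Reads of these genes cannot be placed with certainty, and the difference between them was not tested.

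ZNF616 (ENSG00000204611, chromosome 19, 52113091 to 52139938, minus strand), a KRAB protein with 21 fingers, rose most. It had 8.62, 7.67 and 8.61 CPM in the scramble libraries, 12.96, 12.3 and 12.99 after si-snaR-A#1, 18.8, 16.3 and 18.5 after si-snaR-A#2, and 16.5, 16.4 and 15.9 after transfection of si-snaR-A#3. The lowest siRNA library, with si-snaR-A#1, stood above the highest scramble library, as the choice required, and the si-snaR-A#2 and si-snaR-A#3 libraries overlapped each other. The log2 fold changes were 0.62 (standard error 0.07, adjusted p 7.2e-06), 1.11 (standard error 0.07, adjusted p 2.2e-07) and 0.97 (standard error 0.07, adjusted p 5.4e-07). The transcript shared 6.26% of its words, and its exons overlap those of ENSG00000267827.

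ZNF227 (ENSG00000131115, chromosome 19, 44207547 to 44237268, plus strand) is a KRAB protein with 18 fingers. It had 11.3, 11.1 and 11.1 CPM in the scramble libraries, 22.4, 20.2 and 18.7 after si-snaR-A#1, 22.8, 21.9 and 22.4 after si-snaR-A#2, and 17.2, 16.4 and 17.2 after transfection of si-snaR-A#3. The scramble libraries were nearly equal, and si-snaR-A#3 was the lowest of the 3 siRNAs, with all its libraries below those of the other 2. The log2 fold changes were 0.87 (standard error 0.06, adjusted p 1.5e-07), 1.00 (standard error 0.06, adjusted p 2.2e-07) and 0.60 (standard error 0.06, adjusted p 1.1e-05), and si-snaR-A#2 exceeded si-snaR-A#3 by 0.40 (standard error 0.06, adjusted p 6.9e-04). Only 1.27% of its words were shared, although its exons overlap those of ZNF235.

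ZNF134 (ENSG00000213762, chromosome 19, 57614233 to 57624724, plus strand), which held 10 fingers and no KRAB A box pattern, was measured with more spread. It had 7.44, 9.39 and 5.72 CPM in the scramble libraries, 10.2, 11.3 and 10.6 after si-snaR-A#1, 15.4, 16.3 and 12.7 after si-snaR-A#2, and 13.3, 13.3 and 13.1 after transfection of si-snaR-A#3. The scramble libraries ranged widely, and the highest of them was below the lowest siRNA library, as the choice required. The log2 fold changes were 0.51 (standard error 0.14, adjusted p 0.0102), 0.98 (standard error 0.14, adjusted p 2.5e-04) and 0.82 (standard error 0.14, adjusted p 8.2e-04). Its words were nearly all its own (0.427% shared), and no exon overlaps another gene.

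ZNF551 (ENSG00000204519, chromosome 19, 57681969 to 57717301, plus strand) rose by like amounts with each siRNA. It had 4.19, 4.35 and 4.75 CPM in the scramble libraries, 8.41, 7.53 and 7.33 after si-snaR-A#1, 7.82, 6.96 and 8.09 after si-snaR-A#2, and 8.64, 6.16 and 6.32 after transfection of si-snaR-A#3, and the siRNA groups overlapped one another. Its log2 fold change in the mean of the 3 siRNAs was 0.75 (standard error 0.11, adjusted p 1.3e-04). The exons of this KRAB gene overlap those of ENSG00000269026.

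ZNF468 and ZNF845, KRAB genes of 1 cluster, were highest with si-snaR-A#1. ZNF468 (ENSG00000204604, chromosome 19, 52838010 to 52857649, minus strand) had 5.98, 6.55 and 6.03 CPM in the scramble libraries, 12.6, 12.6 and 11.3 after si-snaR-A#1, 10.8, 9.49 and 10 after si-snaR-A#2, and 9.84, 8.96 and 8.54 after transfection of si-snaR-A#3. ZNF845 (ENSG00000213799, chromosome 19, 53333749 to 53356906, plus strand) had 14.4, 12.7 and 13.7 CPM in the scramble libraries, 25.8, 26.1 and 23.8 after si-snaR-A#1, 22.2, 21.3 and 21.6 after si-snaR-A#2, and 21.2, 19.5 and 19.5 after transfection of si-snaR-A#3. In both genes every si-snaR-A#1 library was above every library of the other siRNAs, and the excess over the mean of the other 2 was 0.34 on the log2 scale (standard error 0.07, adjusted p 7.0e-04) and 0.27 (standard error 0.05, adjusted p 4.1e-04). Their rises in the mean of the 3 siRNAs were 0.75 on the log2 scale (standard error 0.07, adjusted p 3.5e-06) and 0.71 (standard error 0.05, adjusted p 4.8e-07). Shared words came to 24.5% for ZNF468, whose exons overlap those of ZNF28, and to 22.9% for ZNF845, most often with ZNF525.

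ZNF709 (ENSG00000242852, chromosome 19, 12461184 to 12513854, minus strand) was the one fall. It had 9.97, 9.85 and 10.2 CPM in the scramble libraries, 6.66, 7.31 and 6.44 after si-snaR-A#1, 7.48, 8.02 and 8.41 after si-snaR-A#2, and 8.74, 8.63 and 7.94 after transfection of si-snaR-A#3, so each siRNA library was under each scramble library, with the lowest values in si-snaR-A#1. The log2 fold changes were -0.56 (standard error 0.07, adjusted p 3.8e-05), -0.33 (standard error 0.07, adjusted p 0.00475) and -0.25 (standard error 0.07, adjusted p 0.0215). The last call was lost with no filter on low counts (adjusted p 0.0575) and without scramble replicate 1 (0.0527), scramble replicate 3 (0.0717) or si-snaR-A#3 replicate 3 (0.0802). The value is uncertain because 78.8% of its words were shared, most often with ENSG00000196826, whose exons overlap it.

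**Figure D3:**
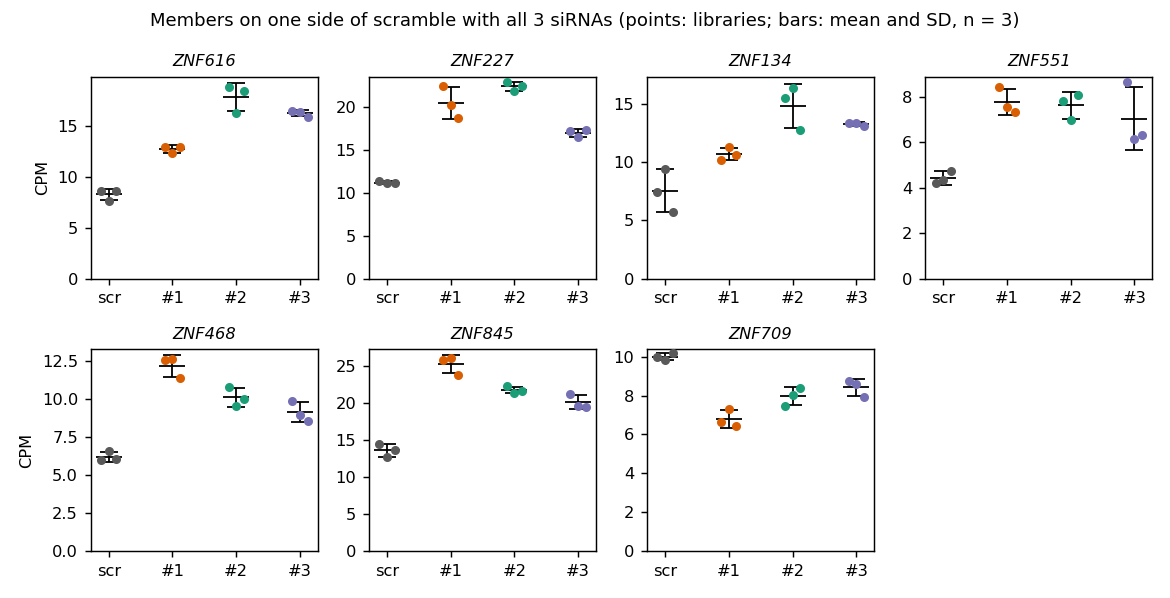
CPM (y axis, from 0) of 7 members (the 6 largest rises and the 1 fall among those called alike with all 3 siRNAs and on 1 side of scramble in all 9 siRNA libraries), in scramble (scr) and the 3 siRNA groups (#1 to #3). Points are libraries and black marks the mean and SD of 3 replicates. ZNF616 goes from at most 8.62 CPM in scramble to at least 12.3 CPM with the siRNAs, and ZNF709 from at least 9.85 to at most 8.74 CPM.

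The most abundant members were mostly genes without a KRAB A box pattern. ZNF146 (ENSG00000167635, chromosome 19, 36214602 to 36238771, plus strand) encodes a protein made of fingers alone. It had 207, 205 and 204 CPM in the scramble libraries, 230.0, 223 and 208 after si-snaR-A#1, 248, 239 and 265 after si-snaR-A#2, and 240.2, 241 and 237 after transfection of si-snaR-A#3. All 9 siRNA libraries were above scramble, though the lowest of them, with si-snaR-A#1, was close to it. The test called the rises with si-snaR-A#2, 0.29 on the log2 scale (standard error 0.05, adjusted p 4.9e-04), and si-snaR-A#3, 0.22 (standard error 0.05, adjusted p 0.00264), and gave 0.10 (standard error 0.05, adjusted p 0.0896) with si-snaR-A#1. That last value was called under upper quartile scaling (0.0422), with a filter at 1 CPM (0.0163), without si-snaR-A#1 replicate 3 (0.0183) and, at 0.31, with the GC content and length trend removed (1.3e-05). Removing that trend also turned its difference between si-snaR-A#1 and the other siRNAs from -0.15 to 0.10.

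ZNF121 (ENSG00000197961, chromosome 19, 9560329 to 9584504, minus strand) differed strongly by siRNA. It had 132, 109.5 and 100.2 CPM in the scramble libraries, 207, 228 and 282 after si-snaR-A#1, 145, 139 and 149 after si-snaR-A#2, and 123, 115 and 116 after transfection of si-snaR-A#3. The si-snaR-A#1 libraries were far above all others, although they were spread widely, and the si-snaR-A#3 libraries fell inside the scramble range. The log2 fold change was 1.07 (standard error 0.11, adjusted p 4.2e-06) with si-snaR-A#1 and 0.34 (standard error 0.11, adjusted p 0.0319) with si-snaR-A#2, a call that was lost under upper quartile scaling (adjusted p 0.0758), with the GC content and length trend removed (0.0774) and without scramble replicate 2 (0.0974), scramble replicate 3 (0.0943) or any 1 si-snaR-A#2 library (0.0572 to 0.0907). Its excess with si-snaR-A#1 over the other 2 was 0.87 on the log2 scale (standard error 0.09, adjusted p 3.7e-06).

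The remaining 3 of the 5 most abundant members moved less. ZNF507 (ENSG00000168813, chromosome 19, 32345594 to 32387667, plus strand) had 97.8, 94.1 and 88.9 CPM in the scramble libraries, 108, 107 and 109 after si-snaR-A#1, 77.5, 80.03 and 75.6 after si-snaR-A#2, and 89.4, 85.1 and 79.2 after transfection of si-snaR-A#3. It was highest with si-snaR-A#1, 0.21 on the log2 scale (standard error 0.05, adjusted p 0.00305), and lowest with si-snaR-A#2, -0.27 (standard error 0.05, adjusted p 0.00119). Its value with si-snaR-A#3, -0.15 on the log2 scale (standard error 0.05, adjusted p 0.0354), lost its call under RLE scaling (0.0522), with no filter (0.0571) and without scramble replicate 1 (0.145), scramble replicate 2 (0.0900), si-snaR-A#1 replicate 2 (0.0547), si-snaR-A#2 replicate 1 (0.0546), si-snaR-A#3 replicate 2 (0.0831) or si-snaR-A#3 replicate 3 (0.131). ZNF714 rose by 0.32 on the log2 scale (standard error 0.05, adjusted p 6.6e-04) with si-snaR-A#2 and 0.30 (standard error 0.05, adjusted p 9.5e-04) with si-snaR-A#3, from 69.4 ± 2.53 CPM in scramble to 86.4 ± 4.31 and 85.2 ± 4.99 (SD, n = 3), and was at 69.9 ± 2.61 CPM with si-snaR-A#1. ZNF562 rose with si-snaR-A#2, 0.30 on the log2 scale (standard error 0.07, adjusted p 0.00523), and its values with the others, which were not called, were 0.06 and 0.14.

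The largest changes with single siRNAs fell mostly on other members. With si-snaR-A#1 the largest rise was in ZNF587B (ENSG00000269343, chromosome 19, 57819721 to 57846238, plus strand), which had 7.67, 8.09 and 7.79 CPM in the scramble libraries, 19.5, 17.2 and 20.3 after si-snaR-A#1, 9.36, 8.35 and 9.46 after si-snaR-A#2, and 12.5, 10.6 and 10.9 after transfection of si-snaR-A#3. Its si-snaR-A#1 libraries exceeded all others, with 1.27 on the log2 scale (standard error 0.08, adjusted p 9.5e-08) against scramble, and si-snaR-A#3 was above si-snaR-A#2, -0.32 (standard error 0.08, adjusted p 0.0193) for si-snaR-A#2 minus si-snaR-A#3. Shared words made up 24.9% of this transcript, and its exons overlap ZNF586.

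ZNF260 (ENSG00000254004, chromosome 19, 36510687 to 36528271, minus strand), a partner of GATA4 in the heart with no KRAB A box pattern, fell with si-snaR-A#1. It had 31.2, 34.5 and 33 CPM in the scramble libraries, 14.5, 16.7 and 17.5 after si-snaR-A#1, 36.8, 36.7 and 37.1 after si-snaR-A#2, and 29.3, 29.03 and 30.1 after transfection of si-snaR-A#3. The si-snaR-A#1 libraries stood at 0.494 times the scramble level, -1.02 on the log2 scale (standard error 0.06, adjusted p 5.0e-08), under every scramble library. The values with the other siRNAs, 0.16 on the log2 scale (standard error 0.06, adjusted p 0.0632) and -0.16 (standard error 0.06, adjusted p 0.066), were near the threshold, and si-snaR-A#2 exceeded si-snaR-A#3 by 0.32 (standard error 0.06, adjusted p 0.00317). ZNF66 (ENSG00000160229, chromosome 19, 20776304 to 20809995, plus strand), of which 33.1% of words were shared, fell with si-snaR-A#1 from 2.79 ± 0.274 to 1.51 ± 0.249 CPM (SD, n = 3), -0.89 on the log2 scale (standard error 0.13, adjusted p 8.7e-05).

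Falls with si-snaR-A#2 were few. ZNF428 (ENSG00000131116, chromosome 19, 43607224 to 43619629, minus strand), with 1 finger pattern, had 17.9, 18.4 and 19.5 CPM in the scramble libraries, 19.5, 19.5 and 17.7 after si-snaR-A#1, 13.3, 12.6 and 11.9 after si-snaR-A#2, and 14.5, 14.4 and 14.9 after transfection of si-snaR-A#3. Both si-snaR-A#2 and si-snaR-A#3 were below all scramble and si-snaR-A#1 libraries, -0.56 on the log2 scale (standard error 0.06, adjusted p 2.1e-05) and -0.35 (standard error 0.06, adjusted p 7.0e-04). ZNF784 (ENSG00000179922, chromosome 19, 55620741 to 55624566, minus strand) fell with si-snaR-A#1, -0.54 on the log2 scale (standard error 0.10, adjusted p 6.2e-04), and si-snaR-A#2, -0.40 (standard error 0.10, adjusted p 0.0101), and was at -0.26 (standard error 0.10, adjusted p 0.0692) with si-snaR-A#3. The si-snaR-A#2 call of ZNF784 was lost without si-snaR-A#2 replicate 3 (0.0503). ZNF470 (ENSG00000197016, chromosome 19, 56567468 to 56588911, plus strand) fell with si-snaR-A#2, -0.38 on the log2 scale (standard error 0.08, adjusted p 0.00451), and si-snaR-A#3, -0.46 (standard error 0.08, adjusted p 0.00109), and had -0.03 with si-snaR-A#1.

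Among the rises with si-snaR-A#3, the third largest after ZNF616 and ZNF134 was in ZNF440 (ENSG00000171295, chromosome 19, 11814273 to 11835216, plus strand). It had 8.58, 8.42 and 8.03 CPM in the scramble libraries, 9.12, 8.63 and 7.95 after si-snaR-A#1, 11.8, 13.03 and 11.8 after si-snaR-A#2, and 14.1, 14.4 and 13.04 after transfection of si-snaR-A#3, and its si-snaR-A#3 libraries were above those of the other groups, the lowest of them by a small margin over the highest of si-snaR-A#2. It rose by 0.73 on the log2 scale (standard error 0.07, adjusted p 7.6e-06) with si-snaR-A#3 and 0.55 (standard error 0.07, adjusted p 8.6e-05) with si-snaR-A#2, with 0.04 for si-snaR-A#1. The 3 largest falls with si-snaR-A#3 were in low members. ZNF331 (ENSG00000130844, chromosome 19, 53519527 to 53580269, plus strand), an imprinted gene, had 5.3, 4.58 and 4.17 CPM in the scramble libraries, 3.79, 3.97 and 4.83 after si-snaR-A#1, 3.51, 4.52 and 3.39 after si-snaR-A#2, and 2.35, 2.85 and 3.14 after transfection of si-snaR-A#3, and its si-snaR-A#3 libraries lay under all scramble libraries, -0.75 on the log2 scale (standard error 0.15, adjusted p 0.00228). ZNF582, whose promoter is known to be methylated in cervical cancer, had 1.69, 2.95 and 3.04 CPM in the scramble libraries, 1.96, 1.68 and 1.64 after si-snaR-A#1, 2.13, 2.25 and 2.59 after si-snaR-A#2, and 1.04, 1.56 and 1.96 after transfection of si-snaR-A#3. Its groups overlapped, and its call, -0.75 on the log2 scale (standard error 0.24, adjusted p 0.0317), was lost without scramble replicate 2 (0.107), scramble replicate 3 (0.116), si-snaR-A#3 replicate 1 (0.111) or si-snaR-A#3 replicate 2 (0.0752). ZNF471 fell from 1.9 ± 0.466 to 1.19 ± 0.0465 CPM (SD, n = 3), -0.68 on the log2 scale (standard error 0.17, adjusted p 0.00928).

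Comparing the siRNAs directly tested how far they differ. In si-snaR-A#1 against the mean of the other 2 siRNAs, 30 members (15.6%) were higher and 83 (43.2%) lower, against 29.1% and 37.9% of the other protein-coding genes and 52% of all genes in either direction. The median difference was -0.14 over members and -0.04 over the other genes. With the GC content and length trend removed, 43 were higher (22.4%) and 57 lower (29.7%), against 32.1% and 34.1% of the other protein-coding genes. In si-snaR-A#2 against si-snaR-A#3, 48 members (25%) were higher and 4 (2.08%) lower, against 9.34% and 14.6% of the other protein-coding genes and 15.6% of all genes in either direction. The median difference was 0.14 over members and -0.03 over the other genes. The count of 48 was 31 without si-snaR-A#2 replicate 2, 30 without its replicate 3 and 29 with si-snaR-A#3 replicate 2 left out. The count of 4 was 1 without si-snaR-A#2 replicate 2, and it was 2 in fits that dropped si-snaR-A#2 replicate 3, si-snaR-A#3 replicate 1 or si-snaR-A#3 replicate 2. Of 217 ZNF genes on other chromosomes, 16 were higher and 23 lower in this comparison.

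Members with 1 sign with si-snaR-A#1 and the other with both other siRNAs, and with that difference called, were next described by the largest differences. ZNF568 (ENSG00000198453, chromosome 19, 36916316 to 37005037, plus strand), whose mouse counterpart represses a placental transcript of Igf2, had the largest. It had 7.42, 7.36 and 6.82 CPM in the scramble libraries, 2.87, 3.62 and 3.85 after si-snaR-A#1, 8.996, 8.56 and 8.66 after si-snaR-A#2, and 7.72, 7.71 and 8.04 after transfection of si-snaR-A#3. Its si-snaR-A#1 libraries stood at 0.479 times scramble, -1.06 on the log2 scale (standard error 0.10, adjusted p 1.8e-06), while those of the other siRNAs were above all scramble libraries. The difference was -1.26 on the log2 scale (standard error 0.09, adjusted p 1.1e-07). The rise with si-snaR-A#2, 0.28 on the log2 scale (standard error 0.09, adjusted p 0.0458), was at the threshold and was lost in every fit that left out a scramble, si-snaR-A#2 or si-snaR-A#3 library (adjusted p from 0.0539 to 0.128), under upper quartile scaling (0.106), in edgeR's exact test (0.0532), with no filter (0.0596) and with the GC content and length trend removed (0.113). The exons of ENSG00000291239 overlap this gene, and 23.6% of its words were shared.

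ZNF708, ZNF100 and ZNF426 are KRAB genes that fell with si-snaR-A#1 and rose with the other siRNAs. ZNF708 (ENSG00000182141, chromosome 19, 21291160 to 21329425, minus strand) had 11.5, 12.8 and 11.5 CPM in the scramble libraries, 9.96, 10.2 and 9.95 after si-snaR-A#1, 19.3, 20.2 and 19.9 after si-snaR-A#2, and 17.6, 17.9 and 16.7 after transfection of si-snaR-A#3. Its si-snaR-A#1 libraries lay under all scramble libraries and the other siRNA libraries above them, with -0.24 on the log2 scale (standard error 0.05, adjusted p 0.00256), 0.74 (standard error 0.05, adjusted p 1.0e-06) and 0.55 (standard error 0.05, adjusted p 9.8e-06). ZNF100 (ENSG00000197020, chromosome 19, 21722771 to 21767579, minus strand) had 21.4, 20.4 and 19.03 CPM in the scramble libraries, 15.9, 16.8 and 16.04 after si-snaR-A#1, 26.6, 28.9 and 30.4 after si-snaR-A#2, and 28.3, 26.1 and 25.7 after transfection of si-snaR-A#3, in the same order of groups, with -0.32 on the log2 scale (standard error 0.06, adjusted p 8.8e-04), 0.50 (standard error 0.06, adjusted p 7.2e-05) and 0.40 (standard error 0.06, adjusted p 3.5e-04). ZNF426 (ENSG00000130818, chromosome 19, 9523223 to 9538645, minus strand) had 16.96, 15.5 and 15.5 CPM in the scramble libraries, 13.8, 13.5 and 13.3 after si-snaR-A#1, 23.4, 26.1 and 25.04 after si-snaR-A#2, and 22.3, 20.04 and 18.98 after transfection of si-snaR-A#3, again in that order, with -0.24 on the log2 scale (standard error 0.07, adjusted p 0.00928), 0.64 (standard error 0.07, adjusted p 1.8e-05) and 0.36 (standard error 0.07, adjusted p 0.00128). The falls with si-snaR-A#1 were not called for ZNF708 and ZNF100 once the GC content and length trend was removed (adjusted p 0.806 and 0.343), whereas their differences between siRNAs stayed called.

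In the other direction, ZNF296 (ENSG00000170684, chromosome 19, 45071500 to 45076478, minus strand), whose mouse counterpart takes part in reprogramming to pluripotency, had 2.95, 3.2 and 3.04 CPM in the scramble libraries, 5.55, 6.03 and 5.44 after si-snaR-A#1, 3.08, 2.81 and 2.9 after si-snaR-A#2, and 2.84, 2.52 and 3.03 after transfection of si-snaR-A#3. Its si-snaR-A#1 libraries were all above those of the other groups, 0.89 on the log2 scale (standard error 0.09, adjusted p 5.8e-06), and the other groups overlapped. The difference from the mean of the other siRNAs was 0.99 on the log2 scale (standard error 0.08, adjusted p 3.2e-07), and none of its words was found in another gene. ZNF525 and ZNF114 had like patterns at low level, with differences of 0.70 on the log2 scale (standard error 0.11, adjusted p 1.3e-04) and 0.53 (standard error 0.11, adjusted p 0.00176). ZNF114 rose with si-snaR-A#1, 0.39 on the log2 scale (standard error 0.13, adjusted p 0.03), a call that was lost without scramble replicate 2 (0.124), scramble replicate 3 (0.0652) or si-snaR-A#1 replicate 1 (0.136). For ZNF428 the difference was 0.48 on the log2 scale (standard error 0.05, adjusted p 4.2e-06).

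**Figure D4:**
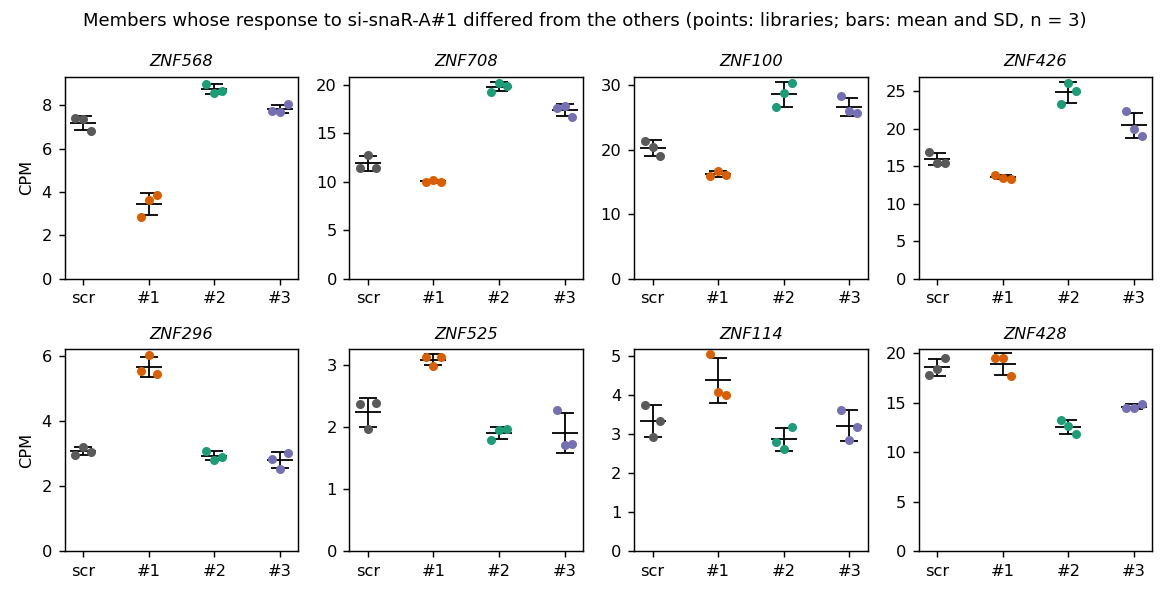
CPM (y axis, from 0) of the 8 members with the largest called differences between si-snaR-A#1 (#1) and the mean of the other siRNAs (#2, #3) and opposite signs against scramble (scr). Points are libraries and black marks the mean and SD of 3 replicates. In the upper row si-snaR-A#1 is the lowest group, and in the first panel of the lower row ZNF296 reaches 5.44 to 6.03 CPM with it against at most 3.20 CPM elsewhere.

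Position on chromosome 19 (GRCh38) gave further detail. Starts under 1 Mb apart were chained into 16 clusters, numbered from the end of the short arm, of which 15 held a member. The largest, cluster 16 (55476617 to 58481230), held 50 members, cluster 15 (51571283 to 53580269) 31, cluster 9 (36182276 to 37817300) 26, cluster 5 (19668796 to 24129968) 21 and cluster 12 (43525497 to 45076478) 20. Members of a cluster are not independent, since they share sequence and surroundings. The counts by cluster are read beside the shares over all members, which were 19.8% higher and 27.1% lower after si-snaR-A#1, 38.0% and 4.69% after si-snaR-A#2, and 25% and 2.08% when si-snaR-A#2 was set against si-snaR-A#3. The other protein-coding genes had 28.5% and 32.4%, 22.2% and 16.1%, and 9.34% and 14.6% in the same order. With the GC content and length trend removed, si-snaR-A#1 gave 31.8% and 17.2% over all members, against 32.8% and 30.1% of the other protein-coding genes. No difference between clusters was tested.

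Cluster 9, which holds ZNF146, ZNF260 and ZNF568, had 14 of 26 members higher (53.8%) and 0 lower with si-snaR-A#2, and also 14 higher and 0 lower in si-snaR-A#2 against si-snaR-A#3, which became 9 higher in each fit that left out 1 si-snaR-A#2 library or si-snaR-A#3 replicate 2. Against scramble, the median over its members was 0.20 for si-snaR-A#2 but 0.01 for si-snaR-A#3. With si-snaR-A#1 it had 2 members higher (7.69%) and 10 lower (38.5%), and a median of -0.13. Without the GC content and length trend these last counts were 8 and 5.

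Cluster 5, the stretch beside the centromere that holds ZNF91, ZNF708 and ZNF100, had 1 member higher (4.76%) and 9 lower (42.9%) with si-snaR-A#1, and 5 and 1 with the trend removed. With si-snaR-A#2 it had 8 higher and 0 lower, and its 38.1% higher was the share over all members. Cluster 3 (11483427 to 12640098), where ZNF709 and ZNF440 lie, had 0 higher and 6 lower (40%) of 15 with si-snaR-A#1, 3 and 3 with the trend removed, and 7 higher (46.7%) and 2 lower (13.3%) with si-snaR-A#2. Cluster 8 (34677639 to 34964229) was the only one of 4 or more members with 0 calls higher against scramble with each siRNA, and had 3, 1 and 2 of its 5 members lower.

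Cluster 15, where ZNF616, ZNF468, ZNF845 and ZNF525 lie, had more rises than falls with si-snaR-A#1. It had 10 members higher (32.3%) and 4 lower (12.9%), a median of 0.13, and 14 and 1 with the trend removed. Its share of rises was near the 28.5% of the other protein-coding genes and under the 42% of other chromosome 19 genes. With si-snaR-A#2 it had 12 higher and 1 lower, again near the share over all members (38.7% higher), a median of 0.29, and with si-snaR-A#3 7 and 1. Of the 19 members called higher with each siRNA, 6 were among the 31 of cluster 15 and 6 among the 50 of cluster 16, the largest clusters. Over all members the share was 9.9%, against 8.68% of the other protein-coding genes.

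**Figure D5:**
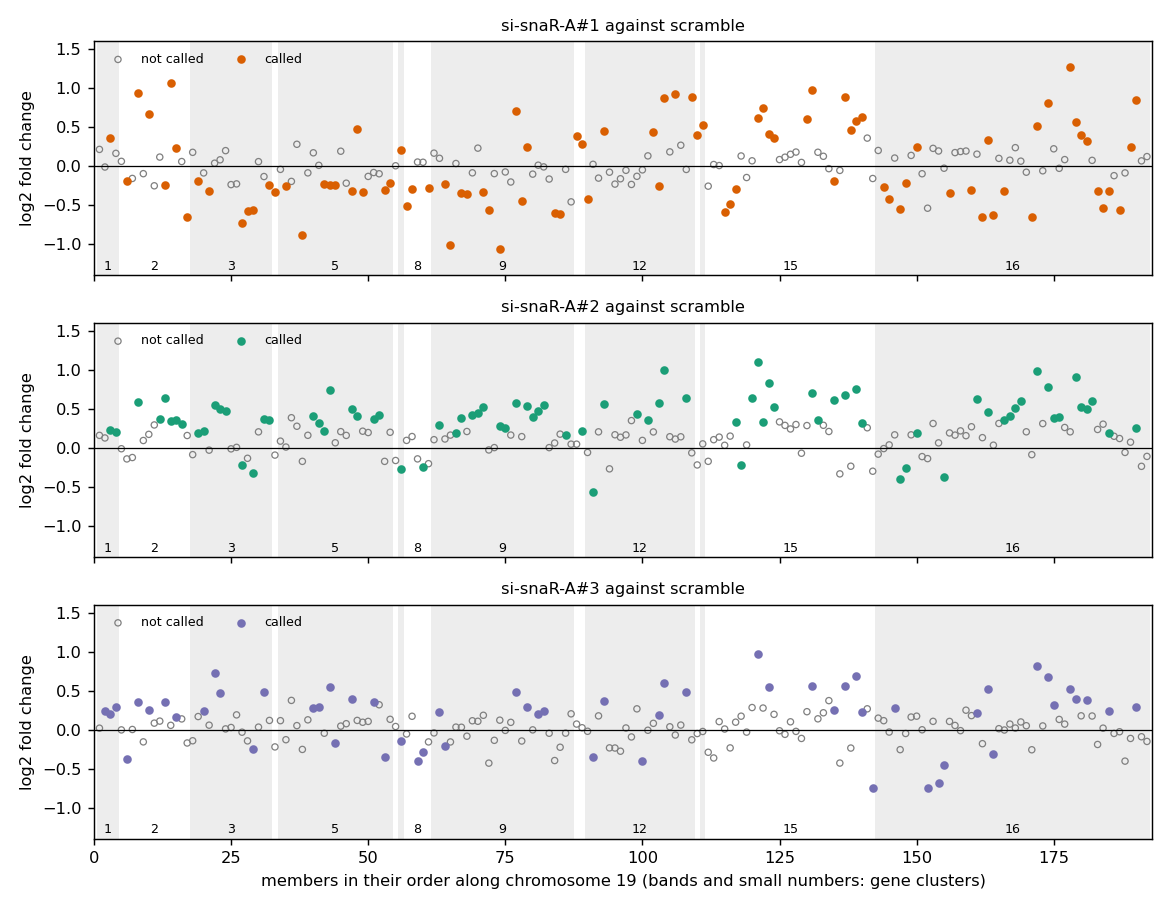
Log2 fold change against scramble (y axis) of the 192 members in their order along chromosome 19 (x axis, rank from the end of the short arm), 1 panel per siRNA. Filled points were called and open points not, and bands mark clusters, numbered where they hold 4 or more members. Points of si-snaR-A#2 lie mostly above 0 (79.2% of members), but not in every cluster: the median of cluster 8 is -0.14. Those of si-snaR-A#1 lie on both sides, with 10 of 26 lower (38.5%) in cluster 9 and 10 of 31 higher (32.3%) in cluster 15. Of the other protein-coding genes, 32.4% were lower and 28.5% higher.

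Members with a known role were read from a list. ZNF91 represses SVA elements, ZNF649 binds LINE-1 elements and ZNF808 silences MER11 elements. None of the 3 was called with any siRNA in the edgeR test. ZNF91 (ENSG00000167232, chromosome 19, 23304991 to 23395471, minus strand) had 16.5, 16.02 and 14.3 CPM in the scramble libraries, 13.7, 15.9 and 12.97 after si-snaR-A#1, 17.9, 17.6 and 18.04 after si-snaR-A#2, and 18.2, 17.1 and 14.98 after transfection of si-snaR-A#3. Its siRNA groups overlapped scramble, apart from si-snaR-A#2, whose libraries were all above it by a little, 0.20 on the log2 scale (standard error 0.09, adjusted p 0.119), and DESeq2 called that value (adjusted p 0.0451). ZNF649 had 9.85 ± 0.355 CPM in scramble and between 9.9 and 10.8 CPM in the siRNA means, and was called by DESeq2 with si-snaR-A#2 (0.0473) and, with the GC content and length trend removed, with si-snaR-A#1 (0.0392). ZNF808, at 1.56 ± 0.324 CPM in scramble, had log2 fold changes of 0.12, 0.29 and -0.06 with SEs of 0.21. ZNF93 and ZNF534, on the same list, were under 1 CPM (0.161 and 0.184).

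ZNF274 (ENSG00000171606, chromosome 19, 58183029 to 58213562, plus strand) binds the 3′ ends of ZNF genes and brings SETDB1 there. It had 16.3, 14.9 and 15.3 CPM in the scramble libraries, 11.7, 12.3 and 13.3 after si-snaR-A#1, 18.3, 17.2 and 17.4 after si-snaR-A#2, and 17.5, 17.9 and 19.3 after transfection of si-snaR-A#3. The si-snaR-A#1 libraries were below all others and the other siRNA libraries above scramble. The log2 fold changes were -0.32 (standard error 0.06, adjusted p 9.1e-04), 0.19 (standard error 0.06, adjusted p 0.0389) and 0.24 (standard error 0.06, adjusted p 0.011), and the difference of si-snaR-A#1 from the other 2 was -0.53 (standard error 0.05, adjusted p 3.4e-06). Its call with si-snaR-A#2 was lost under upper quartile scaling (0.137), with no filter (0.0606) and without scramble replicate 2 (0.129), scramble replicate 3 (0.0606), any 1 si-snaR-A#2 library (0.0651 to 0.133) or si-snaR-A#3 replicate 2 (0.0538), and that with si-snaR-A#3 under upper quartile scaling (0.0546).

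ZNF473 (ENSG00000142528, chromosome 19, 50025714 to 50053414, plus strand), a protein of the U7 snRNP pathway that trims histone pre-mRNA, had 17.7, 16.7 and 17.2 CPM in the scramble libraries, 23.6, 25.3 and 25.8 after si-snaR-A#1, 17.8, 16.7 and 18.95 after si-snaR-A#2, and 16.6, 17.3 and 16.8 after transfection of si-snaR-A#3. It was raised with si-snaR-A#1, 0.53 on the log2 scale (standard error 0.05, adjusted p 4.3e-06), and overlapped scramble with the others, 0.05 and -0.02. The difference from the mean of the others was 0.52 on the log2 scale (standard error 0.05, adjusted p 8.9e-07). Its words were its own (0.086% shared), though its exons overlap those of VRK3.

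The proteins that KRAB fingers work through were read from a list of 16 genes. With si-snaR-A#1, 8 rose (50%) and 4 fell (25%), against 28.5% and 32.4% of the other protein-coding genes. With si-snaR-A#2, 2 rose (12.5%) and 3 fell (18.8%), against 22.2% and 16.1%. With si-snaR-A#3, 3 rose (18.8%) and 1 fell (6.25%), against 27.3% and 15.5%, and in the mean 4 rose (25%) and 2 fell (12.5%), against 24.5% and 21.8%. TRIM28, the KRAB partner, had a mean of 273 CPM in scramble, with 314, 271 and 281 in the siRNA groups in order, and rose with si-snaR-A#1 by 0.20 on the log2 scale (standard error 0.04, adjusted p 0.00151). SETDB1 rose with si-snaR-A#1, 0.13 on the log2 scale (standard error 0.03, adjusted p 0.00363), and fell with si-snaR-A#2, -0.15 (standard error 0.03, adjusted p 0.00434).

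TASOR, a subunit of the HUSH silencing complex, had the largest called change in the mean, 0.43 on the log2 scale (standard error 0.05, adjusted p 1.8e-05), and was higher with each siRNA. ATF7IP, the SETDB1 partner, rose in the mean by 0.27 on the log2 scale (standard error 0.06, adjusted p 0.00421), PPHLN1, also of HUSH, by 0.13 (standard error 0.03, adjusted p 0.00723) and the DNA methyltransferase DNMT1 by 0.15 (standard error 0.05, adjusted p 0.0385). Of these, ATF7IP was not called with si-snaR-A#2 (adjusted p 0.0818). PPHLN1 and DNMT1 were called with si-snaR-A#1 only, 0.29 (adjusted p 4.05e-05) and 0.29 (adjusted p 0.00209). MPHOSPH8, the third HUSH gene on the list, was not called in the mean, -0.04 (standard error 0.05, adjusted p 0.541). It rose with si-snaR-A#1, 0.19 (adjusted p 0.0153), fell with si-snaR-A#2, -0.20 (adjusted p 0.0208), and had -0.11 with si-snaR-A#3 (adjusted p 0.149). The heterochromatin proteins CBX3 and CBX5 fell in the mean, -0.18 on the log2 scale (standard error 0.03, adjusted p 3.9e-04) and -0.32 (standard error 0.06, adjusted p 0.00205). CBX3 was called with si-snaR-A#1 only, -0.45 (adjusted p 6.3e-07), and had -0.05 with each of the others. CBX5 was called with si-snaR-A#1, -0.41 (adjusted p 9.7e-04), and si-snaR-A#2, -0.36 (adjusted p 0.00553). CBX1 fell with si-snaR-A#1, -0.28 (standard error 0.04, adjusted p 1.5e-04), and rose with si-snaR-A#2, 0.14 (standard error 0.04, adjusted p 0.0297), and si-snaR-A#3, 0.29 (standard error 0.04, adjusted p 2.2e-04). Whether these levels bear on those of the members was not tested.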

How the data were processed

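Poly(A)+ RNA of 12 HEK293T libraries was sequenced. Per the labels and the submitters' processing notes, the authors trimmed reads with Trim Galore, assigned them with Salmon (hg38) and deposited estimated counts per gene. The study's methods give the tool versions, which are not repeated here, and a stranded library kit. The transcriptome release and the strand setting of the counting are not given in the sources used here. Values were rounded to whole counts.

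Genes passing edgeR's filterByExpr (21999 of 63541) were scaled by TMM (factors 0.956 to 1.089) and fitted in 1 model of 4 groups (edgeR 4.0.16, R 4.3.3) with the quasi-likelihood test, Benjamini-Hochberg adjustment over all genes tested, and calls at 0.05. The common biological coefficient of variation was 0.117. The SE is the absolute log2 fold change over the square root of F. Members were read from that fit with no test of the list. Members and lists were chosen with earlier results of these data known.

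Replicates were handled on a single day, and no batch is labelled. The fit was tested on simulated data with known changes. Symbols, coordinates and transcripts came from GENCODE release 44, in which 58160 IDs were found, and shared words are 31-mers of the annotated transcripts found in another gene. Fingers (C, 2 to 4 residues, C, 12 residues, H, 3 to 5 residues, H) and KRAB A boxes were patterns in the translated canonical coding sequence, in place of RefSeq proteins. Named members are the 5 most abundant; of those called alike with all 3 siRNAs and on 1 side of scramble in all 9 libraries, the 6 largest rises and falls; the 3 largest called rises and falls per siRNA; the 4 largest differences each way of si-snaR-A#1 with opposite signs; and genes of known role. Cofactors named were TRIM28, SETDB1 and those called in the mean, with CBX1 and MPHOSPH8 added after their values were seen. Alternatives were RLE and upper quartile scaling, DESeq2 1.42.0, edgeR's exact test, no filter (at least 1 count), a filter at 1 CPM, a replicate block, removing a trend on GC content and length (known for 94.1% of tested genes), and leaving out each library.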

Additional observations from a re-analysis of the deposited data

Results flagged for a closer look

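Members were singled out here where the effect of si-snaR-A#1 differed from the mean effect of the other 2 siRNAs in the edgeR test of that difference, adjusted over all genes tested, with opposite signs against scramble. Only the difference had to be called, not the change on either side. ZNF428 with si-snaR-A#1, and ZNF296 with the other 2 siRNAs, overlapped scramble. The log2 difference was 0.99 for ZNF296, 0.70 for ZNF525, 0.53 for ZNF114 and 0.48 for ZNF428. It was -1.26 for ZNF568, -0.89 for ZNF708, -0.77 for ZNF100 and -0.74 for ZNF426. The 8 were the largest of their kind by a fixed rule, and all 8 kept their call in this comparison under every alternative run. Groups of 3 libraries are too small for a test of single outlying samples.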

How the results depend on the processing

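The excess of rises over falls with si-snaR-A#2 held in every alternative run, with 57 to 99 members higher and 6 to 11 lower. With the GC content and length trend removed, si-snaR-A#1 gave 61 higher and 33 lower. These were 31.8% and 17.2% of members, against 32.8% and 30.1% of the other protein-coding genes in that fit. In the same setting si-snaR-A#3 gave 24 lower, and the member medians were 0.0733, 0.171 and 0.0266 for the 3 siRNAs and 0.101 for their mean. ZNF146 turned from -0.15 to 0.0994 between si-snaR-A#1 and the other siRNAs. Under upper quartile scaling, si-snaR-A#3 gave 26 lower, 3 members were lower with all 3 siRNAs, the medians were 0.157, 0.00394 and 0.0531 for si-snaR-A#2, si-snaR-A#3 and the mean, and the summed level was 1.15 and 1.04 times scramble for these siRNAs. RLE scaling gave medians of 0.224, 0.0729 and 0.0993, and a summed ratio of 1.21 with si-snaR-A#2. A filter at 1 CPM gave 25 lower with si-snaR-A#3 and 2 with all 3, and no filter gave 0 with all 3. DESeq2 called 29 higher with all 3. Among members with under 5% shared words, 9.26% were called lower (si-snaR-A#2), 14.8% (si-snaR-A#3), while the medians were 0.141 (si-snaR-A#2) and 0.068 (mean). Members at 5 CPM or more had medians of 0.00506, 0.208, 0.105 and 0.121, and members with no exon overlap, a set added after seeing the data, -0.0506 (si-snaR-A#1) and 0.106 (si-snaR-A#3). With ZNF121 left out, also added after seeing the data, the summed ratio with si-snaR-A#1 was 1.04. For the other changes the cause was not tested.

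Leaving out 1 library at a time gave 35 to 44 higher and 42 to 53 lower with si-snaR-A#1, 57 to 84 and 6 to 9 with si-snaR-A#2, 37 to 44 and 10 to 17 with si-snaR-A#3, 47 to 64 and 13 to 22 in the mean, 27 to 31 and 75 to 86 for si-snaR-A#1 against the others, and 29 to 57 and 1 to 4 for si-snaR-A#2 against si-snaR-A#3. Members called with all 3 numbered 16 to 22 higher and 0 to 1 lower, 0 without scramble replicate 1, scramble replicate 3 or si-snaR-A#3 replicate 3. The medians ran from -0.0267 to 0.000693, 0.203 to 0.22, 0.0408 to 0.107, and 0.0669 to 0.114 in the mean.

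Samples with 1 replicate number did not deviate together (median r -0.0075, from -0.279 to 0.199, and 5 of 12 correlated best with their own number). What the number stands for is not labelled, and these values cannot show whether same-numbered samples shared a culture. With the replicate block, the counts were 37 and 52, 65 and 7, and 39 and 13 for the 3 siRNAs, 59 and 18 in the mean, 30 and 82 for si-snaR-A#1 against the others, 41 and 4 for si-snaR-A#2 against si-snaR-A#3, and 16 and 1 with all 3. Calls not made with the block included ZNF568 (adjusted p 0.0699) and ZNF274 (0.051) with si-snaR-A#2, and ZNF568 (0.0631) and ZNF296 (0.06) in the mean. Over the genes named, 3186 of 3332 values kept their direction and call, 106 lost the call, 39 gained one and 1 reversed. At 3 replicates per group and a median of 8.42 CPM, small changes of low members may go undetected.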
